A study of Mus musculus with 87 samples.

Results

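The genes described here encode the enzymes that make cholesterol and the lipids of myelin, with 2 genes that set the supply of sterol. There are 28 of them among the 48526 genes of the count tables. They were chosen by what the genes do, with earlier results of these data known, and every member is accounted for. By role they are 7 mevalonate enzymes (Acat2, Hmgcs1, Mvk, Pmvk, Mvd, Idi1 and Fdps), 11 enzymes from squalene to cholesterol (Fdft1, Sqle, Lss, Cyp51, Tm7sf2, Msmo1, Nsdhl, Hsd17b7, Ebp, Sc5d and Dhcr7), 2 sterol regulators (Insig1 and Srebf2), 4 fatty acid enzymes (Scd2, Fasn, Elovl1 and Elovl6) and 4 myelin sphingolipid enzymes (Ugt8a, Gal3st1, Fa2h and Cers2). The first 18 are called the sterol enzymes below.

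The samples came from the ventral midbrain of adult male and female wildtype C57BL/6J mice that had received 40 ng of IFN-γ in 400 nL, or saline. Nuclei were sorted by the neuronal protein NeuN, and small pools of sorted nuclei were sequenced in 84 wells at 6, 24, 48 and 72 h. Each fraction had 4 saline and 6 IFN-γ wells at 6, 48 and 72 h, and 6 of each at 24 h. Single nuclei were sequenced at 48 h from 1 saline mouse and 2 IFN-γ mice.

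Several limits bear on every value. Groups held few mice, and which wells shared a mouse was not stated, so the p-values measure spread between wells and not between mice. The sample labels call all 84 wells NeuN+, and the fraction of each well was taken from the published well key. Depth differed between the fractions: NeuN− wells held 20962 to 301445 unique molecules (UMIs, median 110247.5) and NeuN+ wells 277113 to 1684374 (median 1064222). Levels are given as CPM, the UMIs of the gene in every 1000000 UMIs of the well, and they compare 1 gene between wells, not 1 gene with another. Of the NeuN− IFN-γ wells at 6 h, wells 2 and 5 did not differ beyond the sampling noise of 2 separate draws (chi-square per gene 1.03, p 0.121 by a chi-square test), while the other 14 pairs of that group ran from 1.2 to 2.16. These wells were summed and counted as 1 sample, which left 5 samples in that group and 83 in all.

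The sexes were also spread unevenly over the groups. The NeuN− level of Uty, a gene of the Y chromosome, was 76.4 CPM or more in every saline well at 6 h and 9.65 CPM or less in every IFN-γ sample of that time. Xist, which is read from the inactive X chromosome, overlapped there (2759 to 4607 CPM in saline wells, 3222 to 5104 CPM after IFN-γ), so the saline wells of 6 h held both male and female RNA. NeuN+ wells of 6 h showed the same split of Uty, at 43.0 to 83.2 CPM in saline wells and 2.37 to 5.33 CPM after IFN-γ. At 24 h the saline wells held Xist at 2208, 2679, 3618, 3465, 123 and 132 CPM and the IFN-γ wells at 96.6 to 261 CPM, so only saline wells 5 and 6 were like the IFN-γ wells. By Uty too the 24 h saline wells fell in pairs, at 86.6 and 77.2, 14.8 and 0, and 487 and 381 CPM in NeuN− and 71.5 and 89.6, 4.87 and 9.21, and 312 and 318 CPM in NeuN+ wells. Each group held fewer mice than wells, so some wells shared a mouse, but which ones was not stated. The tests count each well as separate. At 48 h NeuN− wells of both groups were high in Xist (3360 to 6834 CPM) and low in Uty (at most 22.5 CPM). At 72 h Uty was at 283 to 439 CPM in NeuN− wells. There saline well 1 stood apart, with Xist at 1272 CPM and the other saline wells at 39.6 to 141 CPM. The sexes thus differed between times too, which bears on changes with time and on fits with saline wells of all times. Among the members only Nsdhl and Ebp lie on the X chromosome, and what part sex played in any difference was not tested.

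Cholesterol is built from acetyl groups through mevalonate to squalene, which is then closed into a ring and trimmed. When sterol runs low in a cell, the product of Srebf2 switches on nearly all of these enzymes, and the product of Insig1 holds it back when sterol is plentiful. Oligodendrocytes need this pathway together with long fatty acids and galactosylated sphingolipids to lay down myelin.

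The limit for a call was a log2 fold change beyond 1 with an adjusted p below 0.01, and a wider limit took an adjusted p below 0.05 at any size. With 1 edgeR fit for each fraction and time, few members reached testable counts in the shallow NeuN− wells: 5 of 28 at 6 h, 3 at 24 h, 4 at 48 h and 6 at 72 h. None of these was a sterol enzyme, so the calls for NeuN− wells speak only for Scd2, Elovl6, Srebf2, Ugt8a, Gal3st1 and Fa2h. Of the 18 sterol enzymes, an edgeR fit without the low-count filter reached 17 there at 6, 24 and 72 h and 18 at 48 h, and another that joined the wells of both fractions and all times reached 11. The filter counts IFN-γ wells too, so a gene low in saline wells can enter a fit through the wells where it is higher. In NeuN+ wells 18, 20, 21 and 20 members were tested at 6, 24, 48 and 72 h.

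**Figure D1:**
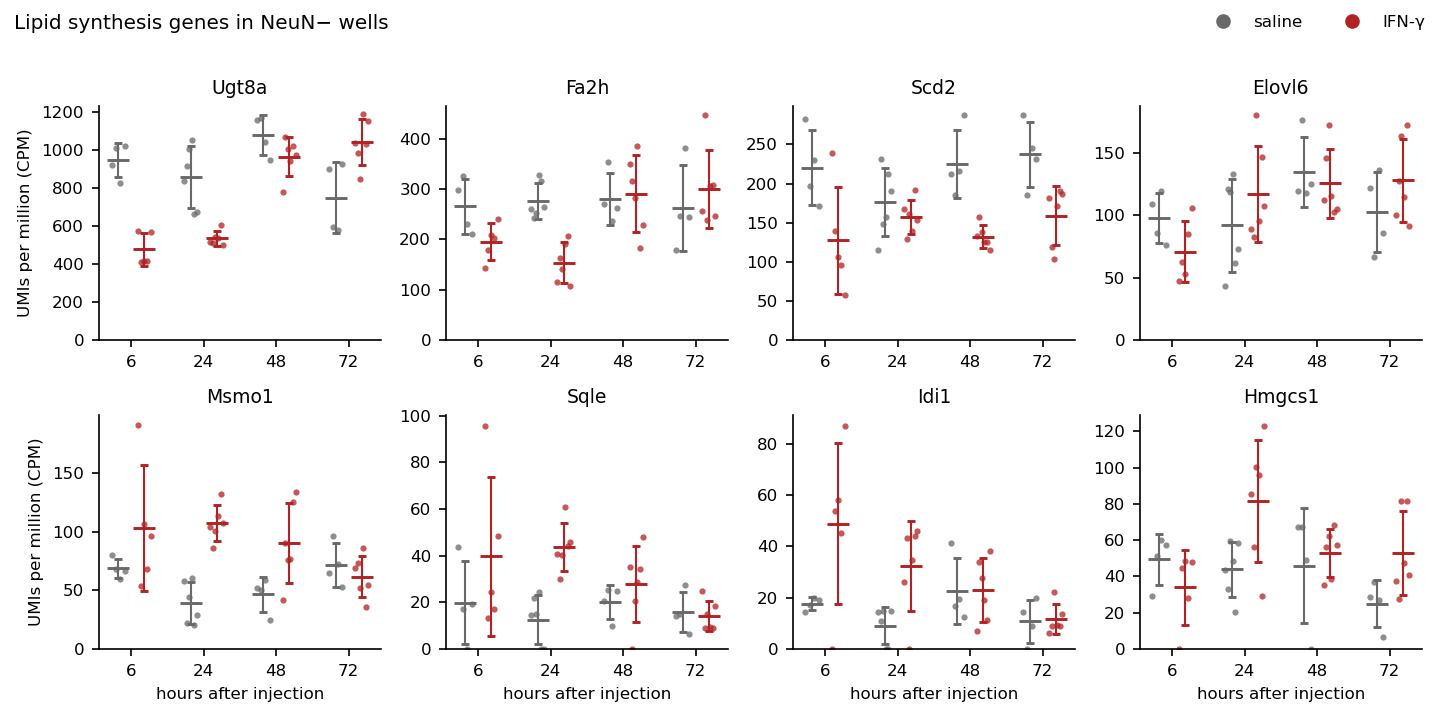
Levels of members in each NeuN− well at 6, 24, 48 and 72 h, in CPM. Saline and IFN-γ wells are drawn side by side.

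At 6 h after IFN-γ, NeuN− wells held less RNA of 2 members that serve myelin lipid synthesis, Ugt8a and Scd2. Ugt8a makes galactosylceramide, the main glycolipid of myelin, and Scd2 puts the double bond into long fatty acids. In these bulk pools fewer cells of a type and less RNA per cell cannot be told apart. Of the 5 members tested, 2 were called, both lower, against 11.4% of all 2692 genes tested, and 3 passed the wider limit against 32.2%. All 5 had a log2 fold change below 0, with a median of −0.49 against −0.01 over all genes tested.

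Ugt8a was at 921, 1011, 829.7 and 1021 CPM in the saline wells and at 572, 409, 417, 418 and 569 CPM in the IFN-γ samples. Every IFN-γ sample lay below every saline well. The log2 fold change was −1.12 (SE 0.125, edgeR adjusted p 1.64e-08), and over 6 other settings it ran from −1.14 to −0.98 with adjusted p from 1.26e-12 to 3.25e-07. The call was lost only without the low-count filter, where the change fell just short of 1. Fa2h, which adds a hydroxyl group to the fatty acids of those lipids, was at 297, 325, 229.9 and 210.0 CPM in saline wells and 143, 179.7, 209, 203 and 241 CPM after IFN-γ. Of its 5 IFN-γ samples 4 lay below the lowest saline well, and it passed only the wider limit with a log2 fold change of −0.46 (SE 0.178, edgeR adjusted p 0.0470). Across settings its adjusted p ranged from 0.00837 to 0.511, and leaving out saline well 1 or 2, IFN-γ well 1, 3 or 4, or the sum of IFN-γ wells 2 and 5 raised it above 0.05, to at most 0.178.

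Scd2 was at 283, 197, 229.9 and 172 CPM in saline wells at 6 h and at 239, 139, 107, 96.1 and 57.9 CPM in IFN-γ samples, of which 4 of 5 lay below the lowest saline well. Its log2 fold change was −1.05 (SE 0.241, edgeR adjusted p 0.000919), with settings from −1.06 to −0.90 and adjusted p from 2.64e-05 to 0.00773. The call did not hold without the filter or with controls drawn from every time. It was also lost when saline well 1, IFN-γ well 4 or IFN-γ well 6 was left out, with an adjusted p of at most 0.0121. Elovl6, which lengthens fatty acids, and the regulator Srebf2 had log2 fold changes of −0.49 (SE 0.223) and −0.48 (SE 0.282) and were not called. Gal3st1, which sulfates galactosylceramide, was at 116, 34.3, 90 and 57.3 CPM in saline and 0, 53.9, 63.1, 73.5 and 48.2 CPM after IFN-γ. Cers2, which joins very long fatty acids to sphingoid bases, was at 72.5, 77.1, 30 and 57.3 CPM and then 0, 49.4, 43.7, 45.2 and 28.9 CPM. Both overlapped between groups and were too low for the test.

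Among the sterol enzymes at 6 h, Idi1, which turns isopentenyl diphosphate into its isomer, stood out in the number of molecules. It was at 14.5, 17.1, 20 and 19.1 CPM in saline wells (8 UMIs in all) and at 0, 53.9, 58.2, 45.2 and 86.8 CPM after IFN-γ (41 UMIs). The sample at 0 was well 1, which held only 20962 UMIs, and the other 4 lay above every saline well. The joint fit of all wells called it higher (log2 fold change 1.68, SE 0.472, edgeR adjusted p 0.00798), and without the filter it passed the wider limit at 1.74. DESeq2 did not, so adjusted p spanned 0.00798 to 0.112 over the 3 settings that tested it. The filter of the joint fit counts IFN-γ wells too, and Idi1 was higher in most of them. Its entry into that fit is thus not independent of the difference, and the call is no separate support. Cyp51, a demethylase of the ring, was at 50.8, 25.7, 10 and 28.6 CPM and then 95.4, 49.4, 67.9, 56.5 and 106 CPM, with 4 of 5 samples above the highest saline well. Acat2, which joins acetyl groups at the start of the path, was at 21.8, 17.1, 20 and 19.1 CPM and then 0, 4.49, 0, 11.3 and 19.3 CPM, of which 4 of 5 were below the lowest saline well. Neither Cyp51 nor Acat2 passed a limit in any fit.

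The joint fit called 3 of the 20 members it tested at 6 h (5.7% of all genes; 3 at the wider limit, 13.4%), and the fit without the filter called 0 of 27 (2.39%; 3 at the wider limit, 4.6%; 5 with an unadjusted edgeR p below 0.05), while DESeq2 called 2. The median log2 fold change of the members was −0.37 in the joint fit against −0.05 over all genes, and −0.31 without the filter against 0.04. The 18 sterol enzymes summed to 457, 394, 359.9 and 353 CPM in saline wells and 572, 391, 471, 396 and 492 CPM after IFN-γ, which overlapped. The 4 myelin sphingolipid enzymes summed to 1407, 1447, 1179.6 and 1346 CPM and then 716, 692, 733, 740.5 and 888 CPM, all below. Most UMIs in these sums were of Ugt8a, and Gal3st1 and Cers2 overlapped between groups. The fatty acid enzymes gave 413, 308, 409.8 and 258 CPM in saline and 334, 216, 165, 203 and 193 CPM after IFN-γ, with 4 of 5 below the lowest saline well.

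Markers of several cell types moved in the same wells at 6 h. Of 14 oligodendrocyte genes 12 were tested, and at the wider limit 6 were lower and 1 was higher, with a median log2 fold change of −0.50. Their summed level was 15211, 15295, 15124 and 13870.3 CPM in saline wells and 10161, 11413, 11203, 10717 and 10950.5 CPM after IFN-γ, with no overlap, St18 the most abundant and none at 0. The 10 microglia markers summed to 675, 711, 700 and 573 CPM in saline wells and 95.4, 157, 107, 215 and 260 CPM after IFN-γ, all below, and the 1 tested was called lower. The 5 markers of oligodendrocyte precursors summed to 1400, 1422, 1210 and 1279 CPM and then 1765, 1878, 1766, 1888 and 1766 CPM, all above, and 2 of 3 tested were higher at the wider limit. By mean, Lhfpl3 went from 476 to 663 CPM and Pcdh15 from 639 to 935 CPM. The other markers overlapped: Vcan (171.6 and 172.1 CPM), Cspg4 (10.0 and 3.23 CPM) and Pdgfra (30.2 and 38.9 CPM). In NeuN+ saline wells of 6 h Lhfpl3 and Pcdh15 were higher still (1027 and 1608 CPM), so the sum is not particular to precursors. The astrocyte marker sum had 4 of 5 IFN-γ samples above the highest saline well and 1 below the lowest (mean 1197 and 1234 CPM). Mural markers had 4 of 5 above (mean 20.5 and 32.3 CPM) and T cell markers 4 of 5 below (mean 20.3 and 5.96 CPM). What part these cell types had in the lower Ugt8a, Scd2 and Fa2h was not tested. Of 44 other genes of the pathway 10 were tested, with 1 called lower and 1 called higher by edgeR. Elovl7, a further fatty acid elongase, fell by a log2 of 1.11 (adjusted p 6.37e-06), from 348, 343, 309.9 and 286 CPM to 95.4, 184, 141, 147 and 145 CPM, and its call was lost without the filter and with saline wells of all times. Cers6, a ceramide synthase for shorter chains, rose by 1.99 (edgeR adjusted p 3.82e-05), from 29, 42.8, 10 and 38.2 CPM to 47.7, 135, 146, 124 and 106 CPM.

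At 24 h Fa2h and Ugt8a were lower in NeuN− wells after IFN-γ, while several sterol enzymes were higher in CPM, although the counts of the latter were too low for the fit of these wells alone. That fit tested 3 members and called 1, lower (14.6% of all 1883 genes tested), and 2 passed the wider limit (41.4%). Their median log2 fold change was −0.76 against 0.03 over all genes.

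Fa2h had a lowest, median and highest level of 243, 262 and 327 CPM in the 6 saline wells and of 107, 152 and 206 CPM in the 6 IFN-γ wells. All 6 IFN-γ wells were below all saline wells, with a log2 fold change of −1.01 (SE 0.182, edgeR adjusted p 4.21e-05). Settings gave −1.01 to −0.84 with adjusted p 1.72e-06 to 0.00242, and the change shrank to less than 1 without the filter, under DESeq2, with saline wells of all times and in the joint fit. Leaving out saline well 4, IFN-γ well 1 or IFN-γ well 6 had the same effect. Over all 12 fits that left out 1 well, log2 fold changes ran from −1.09 to −0.90, with adjusted p up to 0.000388. Ugt8a ran at 665, 876 and 1054 CPM in saline and 499, 528 and 604 CPM after IFN-γ, again without overlap. It passed the wider limit at −0.76 (SE 0.13, edgeR adjusted p 1.84e-05; settings −0.81 to −0.62, adjusted p 3.91e-07 to 0.00318). Gal3st1 (11, 49.7 and 84.8 CPM; then 14.7, 31.6 and 99.7 CPM) and Cers2 (27.4, 46.2 and 89 CPM; then 18.6, 27.8 and 76.7 CPM) overlapped. Scd2 was at 115, 174 and 232 CPM and then 129, 157 and 191 CPM, a log2 fold change of −0.34 that passed neither limit. The other fatty acid enzymes were not tested at 24 h: Elovl6 was at 43.3, 96 and 133 CPM and then 82.9, 102 and 181 CPM, Fasn, which builds the first long chain, summed to 4 and 10 UMIs, and Elovl1 to 9 and 5 UMIs.

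Among the sterol enzymes Msmo1, which removes methyl groups from the ring, gave the clearest difference at 24 h. It was at 20.6, 36.9 and 60.6 CPM in saline wells (19 UMIs) and 86.3, 106 and 132 CPM after IFN-γ (95 UMIs), and even the lowest IFN-γ well exceeded the highest saline well. It was called higher without the filter (log2 fold change 1.55, SE 0.36, edgeR adjusted p 0.000587), in the joint fit (1.45) and by DESeq2 (1.44). With saline wells of all times the change was 0.82, and over these 4 settings adjusted p ran from 0.000564 to 0.00534. Sqle, which oxidises squalene, was at 0, 14.6 and 24.2 CPM (6 UMIs) and then 29.9, 42.5 and 60.9 CPM (38 UMIs), also without overlap. It passed the wider limit without the filter (1.83, SE 0.587, edgeR adjusted p 0.0328) and in the joint fit (1.78), within a span of 0.0106 to 0.0765 over 3 settings. Idi1 was at 0, 12.7 and 14.8 CPM (4 UMIs) and then 0, 39 and 46 CPM (33 UMIs), with 5 of 6 IFN-γ wells above the highest saline well. The joint fit called it (2.13, SE 0.588, edgeR adjusted p 0.00549), and its adjusted p over 3 settings reached 0.0947 under DESeq2. The filter of the joint fit counts IFN-γ wells too, where Sqle and Idi1 were higher. Their entry into that fit is thus not independent of the difference.

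Further along the same path, Hmgcs1, which makes the precursor of mevalonate, was at 20.6, 45.9 and 59.3 CPM and then 29.4, 90.6 and 123 CPM, with 4 of 6 IFN-γ wells above the highest saline well. Sc5d, a late desaturase of the ring, was at 0, 14.5 and 36.4 CPM and then 18.6, 43.8 and 60.3 CPM, with 5 of 6 above. Fdft1, which joins 2 farnesyl units into squalene, was at 24.2, 29.3 and 66.2 CPM and then 0, 69.8 and 118 CPM. Cyp51 (0, 28.1 and 74.1 CPM; then 34.8, 53.4 and 73.6 CPM) stayed within the range of the saline wells, although 6 of 6 IFN-γ wells lay above the saline median. Dhcr7, which acts last, also stayed within that range (0, 22.2 and 43.3 CPM; then 0, 26 and 40.2 CPM). Nsdhl (14.4, 26.8 and 48.5 CPM; then 0, 21.7 and 52.2 CPM) and Hsd17b7 (0, 13.4 and 74.1 CPM; then 0, 17.6 and 37.2 CPM), which act together on the ring, overlapped, with 2 and 5 of 6 IFN-γ wells above the saline median. Acat2, Mvk, Pmvk, Mvd, Lss, Tm7sf2 and Ebp each held 13 UMIs or fewer per group at 24 h, and Fdps, which makes farnesyl diphosphate, held 0 in every NeuN− well at 6, 24 and 72 h. The regulators Insig1 (44, 54.3 and 115 CPM; then 40.2, 59.2 and 123 CPM) and Srebf2 (58.6, 72.4 and 89.1 CPM; then 46, 98.1 and 143 CPM) overlapped between groups. Of the Srebf2 values after IFN-γ, 4 of 6 lay above the highest saline well and 1 below the lowest.

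Without the filter 1 of 27 members was called at 24 h (3.32% of all 19276 genes) and 5 passed the wider limit (6.23%), 3 higher and 2 lower. The joint fit called 2 of 20, Msmo1 and Idi1 (8.34% of all 8427 genes) with 5 at the wider limit (18.2%). For the sterol enzymes without the filter, 14 of 17 had a log2 fold change above 0, with a median of 0.77 against 0.17 over all genes, and the 4 myelin sphingolipid enzymes were all below 0 with a median of −0.44, of which Fa2h and Ugt8a passed the wider limit. The sterol enzymes summed to 206, 316 and 400.4 CPM (lowest, median and highest) in saline wells and 422, 557 and 617 CPM after IFN-γ, all above. The myelin sphingolipid enzymes summed to 1056, 1209 and 1515 CPM and then 684, 769 and 854 CPM, all below. Ugt8a again held most UMIs of these sums, and Gal3st1 and Cers2 overlapped between groups.

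**Figure D2:**
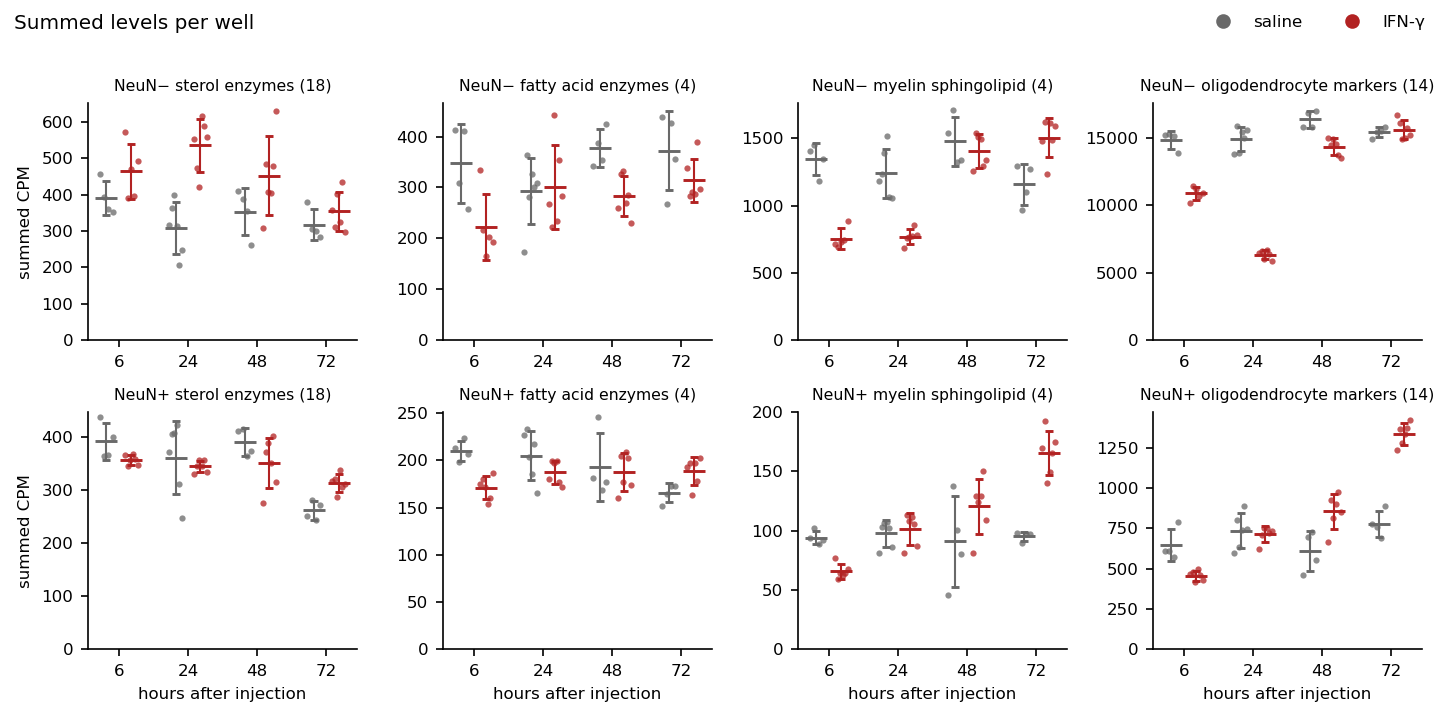
Summed levels of the sterol, fatty acid and myelin sphingolipid enzymes and of the oligodendrocyte markers in each NeuN− and NeuN+ well, in CPM.

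Cell type markers in the NeuN− wells at 24 h moved in both directions. Oligodendrocyte markers were lower for 12 of 12 tested at the wider limit (median −1.38) and summed to 13808, 15227 and 15922 CPM in saline wells against 5906, 6453 and 6670.4 CPM after IFN-γ. Astrocyte markers were higher for 4 of the 4 tested out of 9 (median 1.08), and their sum went from 981, 1202 and 2098 CPM to 2679, 3004 and 3709.8 CPM, with Slc4a4 the most abundant. Neither sum overlapped between groups. The sum of the precursor markers (897, 1536 and 1715 CPM; then 1607, 2257 and 2437 CPM) had 5 of 6 IFN-γ wells above the highest saline well, as did the fibroblast markers (0, 26.5 and 55.1 CPM; then 14.7, 65.7 and 84.4 CPM). Within the precursor sum the mean went from 619 to 1176 CPM for Pcdh15 and from 576 to 748 CPM for Lhfpl3. Vcan (mean 159 and 182 CPM) and Cspg4 (11.7 and 21.0 CPM) overlapped, as did Pdgfra, which had a lower mean after IFN-γ (53.5 and 41.8 CPM). Endothelial markers (22.1, 51.6 and 121 CPM; then 87, 142 and 221 CPM) had 4 of 6 above, and microglia markers (504, 682 and 909 CPM; then 355, 458 and 614 CPM) 4 of 6 below. What part these had was not tested. Whether more astrocyte RNA in the pool carried the higher Msmo1, Sqle and Idi1 was not tested, nor whether less oligodendrocyte RNA carried the lower Ugt8a and Fa2h.

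Of the 44 other pathway genes 4 were tested at 24 h, and edgeR placed 0 higher and 3 lower at the wider limit: Elovl7 (−0.81, adjusted p 0.000867), the cholesterol exporter Abca1 (−0.54, adjusted p 0.0125) and Acaca (−0.36, adjusted p 0.0239). Abca1 and Acaca did not pass without the filter or under DESeq2 (adjusted p up to 0.307 and 0.486). Abca1 was at 232, 249.9 and 297 CPM in saline and 123, 174 and 230.3 CPM after IFN-γ. The lipid transporter Abca2, below the filter, was called lower by all 4 other settings that tested it (57.7, 95.8 and 121 CPM; then 8.7, 24.8 and 44.2 CPM; −2.11 to −1.72, edgeR and DESeq2 adjusted p 7.96e-09 to 0.000127). Others below the filter were higher in 1 or 2 of the settings that tested them. Ggps1, which makes a longer isoprenoid, was called in 1 of 3 and passed the wider limit in 2 (1.15 to 1.27, edgeR and DESeq2 adjusted p 0.00626 to 0.0644). Cers6 passed the wider limit in 2 of 3 (1.18 to 1.28, adjusted p 0.0233 to 0.1), Me1 in 1 of 3 (0.83 to 0.96, adjusted p 0.0494 to 0.14) and Psap in 1 of 4 (0.54 to 0.88, adjusted p 0.0413 to 0.136). Srebf1 (12.1, 22.2 and 48 CPM; then 33.2, 39.3 and 58.9 CPM) and Insig2 (0, 18.4 and 28.9 CPM; then 7.67, 19.4 and 60.3 CPM) overlapped. Ch25h and Cyp46a1 held 7 UMIs or fewer per group.

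At 48 h a smaller share of all genes passed in NeuN− wells than at 24 h, and the members that passed at 24 h did not. Of 4 members tested edgeR called 0 (1.4% of all 2352 genes), 1 had an unadjusted p below 0.05, and DESeq2 also called 0. At the wider limit 1 was lower (6.29% of all genes), and the median of the 4 was −0.08 against 0.00 over all genes. Scd2 was at 213, 185, 216 and 287 CPM in saline wells and at 115, 129 and 158 CPM (lowest, median and highest of 6) after IFN-γ, all below. Its log2 fold change of −0.69 (SE 0.199, edgeR adjusted p 0.0270) had a range of −0.76 to −0.69 over settings, with adjusted p 0.0033 to 0.17. It missed the wider limit without the filter, under DESeq2 and in the joint fit, and when saline well 1 or 4 was left out (adjusted p up to 0.0952).

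Ugt8a and Fa2h overlapped between groups at 48 h. Ugt8a was at 1156, 1171, 1042 and 949 CPM and then 778, 992 and 1069.5 CPM, and Fa2h at 269.6, 354, 236 and 262 CPM and then 182, 299 and 386 CPM. Gal3st1 (67.4, 118, 49.2 and 74.9 CPM; then 57.4, 84.9 and 106 CPM) and Cers2 (46.7, 67.4, 0 and 50 CPM; then 22.8, 67.2 and 117 CPM) overlapped as well. Among sterol enzymes Msmo1 was at 51.9, 50.5, 59 and 25 CPM and then 42, 83.6 and 134 CPM, with 5 of 6 IFN-γ wells above the highest saline well, but passed no limit in any fit. The regulator Srebf2 was at 46.7, 50.5, 39.3 and 37.5 CPM and then 45, 68 and 105 CPM, also with 5 of 6 above and no limit passed. Sqle was at 20.7, 25.3, 9.83 and 25 CPM and then 0, 31.5 and 47.8 CPM, and Idi1 at 41.5, 16.8, 19.7 and 12.5 CPM and then 7.01, 23.5 and 38.2 CPM. The 18 sterol enzymes summed to 409.6, 388, 354 and 262 CPM and then 308, 443 and 631 CPM. Oligodendrocyte markers were lower for 2 of 13 tested, and their sum was still below that of every saline well: 15825, 16840.5, 15838 and 17047 CPM against 13526, 14550.5 and 14984 CPM. Astrocyte markers were higher for 3 of 4 tested and summed to 741, 1087, 1298 and 737 CPM against 1543, 1641 and 1813 CPM, all above. Microglia markers, of which edgeR passed 0 of 3 tested (2 unadjusted p below 0.05; DESeq2 called 0), summed to 752, 817, 649 and 787 CPM against 372, 470 and 665 CPM, with 5 of 6 below. What part these markers had in the values of Scd2 and Msmo1 was not tested. Of the other pathway genes 7 were tested, and edgeR passed 0 at either limit (1 unadjusted p below 0.05; DESeq2 called 0).

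At 72 h the direction for Ugt8a in NeuN− wells had turned. Of 6 members tested edgeR called 0 (1.13% of all 2916 genes), 3 had an unadjusted p below 0.05, and DESeq2 called 0 as well. The wider limit took 1, higher (3.94%), with a median log2 fold change of 0.21 over the 6 against 0.00. Ugt8a was at 899, 595, 581 and 925 CPM in saline wells and at 848, 1036 and 1192 CPM after IFN-γ, with 5 of 6 IFN-γ wells above the highest saline well. The log2 fold change was 0.44 (SE 0.118, edgeR adjusted p 0.0211), and settings ran from 0.17 to 0.46 with adjusted p from 0.0186 to 0.527. It was lost under DESeq2, with saline wells of all times, and without saline well 2 or 3 or IFN-γ well 4 or 6 (adjusted p up to 0.147).

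Fa2h at 72 h (179.7, 246, 381 and 244 CPM; then 238, 281 and 448 CPM) and Gal3st1 (151, 67, 72.6 and 66.1 CPM; then 54.4, 91 and 109.7 CPM) overlapped. Srebf2 was at 57.5, 74.4, 63.5 and 46.2 CPM and then 82.1, 100.0 and 104 CPM, all above, with an edgeR log2 fold change of 0.65 and an adjusted p of 0.264. Scd2 was at 288, 186, 245 and 231 CPM and then 104, 177 and 190.3 CPM, with 4 of 6 below the lowest saline well (−0.58, edgeR adjusted p 0.0742). Msmo1 (64.7, 96.7, 72.6 and 52.9 CPM; then 36.3, 61.8 and 85.8 CPM) and Sqle (14.4, 14.9, 27.2 and 6.61 CPM; then 9.06, 12.2 and 25.1 CPM) showed no shift. Hmgcs1 was at 28.8, 37.2, 27.2 and 6.61 CPM and then 27.4, 44.4 and 81.8 CPM, with 5 of 6 above. Cers2 likewise had 5 of 6 above (64.7, 59.5, 63.5 and 33 CPM; then 57.2, 77.3 and 91.2 CPM). Sc5d went the other way, with 5 of 6 below the lowest saline well (21.6, 22.3, 18.2 and 26.4 CPM; then 6.26, 12.2 and 18.3 CPM), and neither passed a limit in any fit. The oligodendrocyte marker sum overlapped at this time (14909.7, 15461, 15540.2 and 15823 CPM; then 14973, 15492 and 16696 CPM). The microglia marker sum lay wholly above the saline wells (568, 610, 599 and 496 CPM; then 689, 779 and 813 CPM) and that of the precursors wholly below (1560, 1838, 1815 and 1956 CPM; then 1127, 1395 and 1507 CPM). Astrocyte markers (1963, 1890, 1915 and 1711 CPM; then 1272, 1520 and 1783 CPM) had 5 of 6 below. Of the other pathway genes 10 were tested, and edgeR took 0 at either limit (0 unadjusted p below 0.05; DESeq2 called 0).

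Whether the effect of IFN-γ in NeuN− wells itself changed with time was tested in 1 fit of all NeuN− wells, which reached 7 members. Mice of different times were different animals, so time and mouse cannot be told apart, and the contrasts share the 24 h wells. From 6 to 24 h edgeR called 0 of 7 (6.05% of all 3552 genes; 2 had an unadjusted p below 0.05; DESeq2 called 0), and 0 passed the wider limit (13.2%). Msmo1 came nearest, with a change of 1.17 (SE 0.465, edgeR adjusted p 0.0921), and the median of the 7 was 0.56 against −0.02 over all genes. From 24 to 48 h 1 of 7 was called (4.98%) and 2 passed the wider limit (12.5%), both upward. The effect on Fa2h rose by 1.08 (SE 0.271, edgeR adjusted p 0.00339; settings 0.93 to 1.08, adjusted p 0.00328 to 0.0761) and that on Ugt8a by 0.59 (SE 0.174, adjusted p 0.0144; settings 0.45 to 0.60, adjusted p 0.0148 to 0.441). Neither passed without the filter.

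From 24 to 72 h 3 of the 7 were called (9.01%) and the same 3 passed the wider limit (19.7%). The effect on Ugt8a rose by 1.19 (SE 0.174, edgeR adjusted p 1.62e-07) and that on Fa2h by 1.15 (SE 0.267, edgeR adjusted p 0.00077), while the effect on Msmo1 fell by 1.65 (SE 0.455, edgeR adjusted p 0.00518). Over settings Ugt8a spanned 1.05 to 1.20 (adjusted p 1.49e-09 to 1.81e-05), Fa2h 1.00 to 1.16 (adjusted p 0.000746 to 0.0171) and Msmo1 −1.79 to −1.64 (adjusted p 0.00561 to 0.0219). The calls for Fa2h and Msmo1 were lost without the filter, and that for Msmo1 also under DESeq2. The filter of this fit counts IFN-γ wells too, and Msmo1 was higher in them at 24 h. Its entry among the 7 is thus not independent of that difference. At 24 h all 6 IFN-γ wells were above all saline wells for Msmo1 and below for Ugt8a and Fa2h, and at 72 h all 3 overlapped. The change was fitted on these same wells, so this only restates it. Oligodendrocyte markers changed alongside, with 12 of 14 higher from 24 to 72 h (median 1.09), and 4 of 5 astrocyte markers tested lower (median −1.38). Of 15 other pathway genes tested, the 24 to 72 h change was called upward for Elovl7 (1.06, edgeR adjusted p 0.000569) and Abca2 (1.59, edgeR adjusted p 0.00539). Both calls were lost without the filter. Npc1 (1.38, edgeR adjusted p 0.0364) and, downward, Ggps1 (−1.28, edgeR adjusted p 0.0489) passed the wider limit narrowly. Ggps1 lost it under all 3 other settings (adjusted p 0.0501 to 0.151), and Npc1 without the filter and under DESeq2 (up to 0.286). Between 24 and 48 h Abca2 (1.82, edgeR adjusted p 0.00366) and Ggps1 (−1.76, edgeR adjusted p 0.0127) passed, and between 6 and 24 h only Abca2 (−1.48, edgeR adjusted p 0.0246; up to 0.154 in other settings).

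The NeuN+ wells were deeper and tested 12 or 13 of the 18 sterol enzymes at each time. At 6 h, as in NeuN− wells, Scd2 and Ugt8a were lower after IFN-γ. Of 18 members tested 1 was called (1.37% of all 9033 genes) and 2 passed the wider limit (8.61%), both lower, with a median of −0.16 against −0.01. Scd2 was at 86.6, 41, 49.2 and 61.2 CPM in saline wells and at 21.3, 27.7 and 34.4 CPM (lowest, median and highest of 6) after IFN-γ, all below. Its log2 fold change was −1.01 (SE 0.184, edgeR adjusted p 0.000289; settings −1.02 to −0.71, adjusted p 2.58e-06 to 0.000898). The call was lost without the filter, with saline wells of all times, and without saline well 1 or 4 or IFN-γ well 3, 4 or 5, where the log2 fold change reached −0.88 at the least. Ugt8a was at 68.6, 64.5, 49.2 and 63.4 CPM and then 28.7, 41.1 and 45.3 CPM, all below (−0.67, SE 0.156, edgeR adjusted p 0.00481; 0.000371 to 0.00713 over settings). Fa2h, at 18, 14.1, 13.9 and 12.9 CPM and then 6.7, 8.56 and 10 CPM, also lay wholly below but did not pass (−0.76, edgeR adjusted p 0.0987).

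Of 12 sterol enzymes tested by edgeR in NeuN+ wells at 6 h 0 passed (1 unadjusted p below 0.05; DESeq2 called 0), 8 were below 0, and their median was −0.15. Idi1 was at 10.8, 10.6, 15.1 and 10.7 CPM and then 15, 16.5 and 21.3 CPM, with 5 of 6 above. Msmo1 (21.7, 35.2, 45.4 and 61.2 CPM; then 29.3, 34.9 and 38 CPM) and Sqle (18, 21.1, 13.9 and 21.5 CPM; then 17.9, 18.3 and 26.1 CPM) overlapped. Oligodendrocyte markers were lower for 5 of 10 tested in these wells too (median −0.57), and summed to 606, 607, 574 and 789.6 CPM against 414, 460.4 and 496 CPM. VGLUT2 neuron markers also lay wholly below, at 1956, 1841, 2009 and 2045 CPM and then 1536, 1572 and 1684 CPM, as did the scarce ependymal and choroid markers (25.3, 9.38, 6.31 and 6.45 CPM; then 0, 1.22 and 2.44 CPM). Astrocyte markers (235, 258, 324 and 272 CPM; then 185, 214 and 236 CPM) had 5 of 6 below, and dopamine neuron markers (281, 392, 341 and 373 CPM; then 386, 440 and 534 CPM) 5 of 6 above. What part these had in the lower Scd2 and Ugt8a was not tested. The level of the oligodendrocyte markers was far under that of NeuN− wells, and whether stray oligodendrocyte RNA carried the lower Ugt8a was not tested. Of 34 other pathway genes tested edgeR took 0 at either limit (3 unadjusted p below 0.05; DESeq2 called 0).

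In NeuN+ wells at 24 and 48 h no member passed. At 24 h edgeR called 0 of 20 (1.73% of all 9416 genes) and 0 at the wider limit (11.5%), with 3 unadjusted p below 0.05 and 0 called by DESeq2, and the median was −0.03 against −0.01. The 3 were Dhcr7 (−0.56, edgeR adjusted p 0.141), Hmgcs1 (0.31, edgeR adjusted p 0.167) and Acat2 (−0.50, edgeR adjusted p 0.186). The genes that stood out in NeuN− wells overlapped here: Msmo1 was at 24.1, 41.3 and 46.3 CPM and then 29.7, 42.7 and 57.2 CPM, Sqle at 14.4, 22.5 and 27.9 CPM and then 13.4, 23.3 and 28.1 CPM, and Ugt8a at 41.4, 62.9 and 81.8 CPM and then 45.3, 68.2 and 86 CPM. At 48 h edgeR called 0 of 21 (0.169% of all 10033 genes) and 0 at the wider limit (0.867%), with 5 unadjusted p below 0.05 and 0 called by DESeq2. Ugt8a was at 19.9, 73.7, 71.5 and 49.2 CPM and then 63.9, 85.3 and 104 CPM, with 5 of 6 above (0.57, edgeR adjusted p 0.104). Oligodendrocyte markers, higher for 2 of 12 tested, summed to 458, 699, 727 and 556 CPM and then 663, 874 and 977 CPM, also with 5 of 6 above. The astrocyte (mean 169 and 266 CPM) and VGLUT2 neuron sums (mean 1689 and 1922 CPM) had 5 of 6 above too. Microglia markers had 5 of 6 above and 1 below (mean 99.9 and 141 CPM), and ependymal and choroid markers lay wholly below (mean 23.5 and 0.732 CPM). What part these markers had in the Ugt8a values was not tested. The others with an unadjusted p below 0.05 were Sqle (−0.59), Srebf2 (−0.36), Insig1 (0.45) and Lss, which closes the ring (−0.48). Of 33 other pathway genes at 24 h and 36 at 48 h, 0 passed either edgeR limit (1 unadjusted p below 0.05 each; DESeq2 called 0).

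At 72 h Fa2h and Ugt8a were higher in NeuN+ wells after IFN-γ. Of 20 members tested 1 was called (0.766% of all 9405 genes) and 3 passed the wider limit (7.17%), all higher, and 16 of 20 were above 0, with a median of 0.20 against 0.00. Fa2h was at 14.5, 10.2, 14.7 and 14.3 CPM in saline wells and at 23.2, 29.7 and 35.8 CPM after IFN-γ, all above. Its log2 fold change was 1.10 (SE 0.207, edgeR adjusted p 0.000562; settings 0.91 to 1.12, adjusted p 1.82e-05 to 0.00319). The call was lost with saline wells of all times and without saline well 2, its lowest, where the log2 fold change was 0.97. Ugt8a was at 63.8, 56.4, 55.1 and 62.7 CPM and then 96.1, 114 and 136 CPM, all above (0.89, SE 0.1, edgeR adjusted p 1.88e-07; 1.64e-13 to 2.95e-07 over settings). The other myelin sphingolipid enzymes overlapped and did not pass: Gal3st1 was at 10.6, 11.1, 16.5 and 11.1 CPM and then 11, 13.2 and 16.6 CPM (0.17, edgeR adjusted p 0.77), and Cers2 at 8.71, 12, 11 and 8.73 CPM and then 7.99, 9.98 and 11.9 CPM (−0.04, edgeR adjusted p 0.966).

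Among sterol enzymes at 72 h in NeuN+ wells, Msmo1 was at 15.5, 25, 23.9 and 23 CPM and then 28.6, 32.4 and 43.9 CPM, all above (0.62, SE 0.192, edgeR adjusted p 0.0437). That result was weak: adjusted p ran from 0.025 to 0.922 over settings, the sign turned to −0.05 with saline wells of all times, and leaving out saline well 1, 2 or 4 or IFN-γ well 1, 4 or 5 took adjusted p up to 0.192. Idi1 (6.77, 4.62, 7.35 and 7.94 CPM; then 9.55, 12.2 and 15 CPM) and Fdft1 (22.2, 27.7, 20.2 and 24.6 CPM; then 28.6, 33.9 and 41.4 CPM) also lay wholly above without passing (edgeR adjusted p 0.0872 and 0.0918). Dhcr7 was at 21.3, 13.9, 14.7 and 13.5 CPM and then 7.73, 9.9 and 14.3 CPM, with 5 of 6 below. The 18 sterol enzymes summed to 252, 280.2, 243 and 271 CPM and then 287, 314 and 337 CPM, all above. Oligodendrocyte markers were higher for 9 of 12 tested (median 0.64) and summed to 778, 760.1, 691 and 885 CPM against 1237, 1353 and 1420.3 CPM. Dopamine neuron markers were higher for 5 of 5 tested (252, 229, 189 and 152 CPM; then 452, 500 and 566 CPM), VGLUT2 neuron markers lower for 3 of 3 (2176, 2122, 2038 and 2141 CPM; then 1418, 1488 and 1536 CPM) and astrocyte markers higher for 2 of 5 (285, 325, 309 and 299 CPM; then 373, 399 and 431 CPM), and none of these sums overlapped. What part these markers had in the higher members was not tested. Of 32 other pathway genes tested edgeR took 2, both higher at the wider limit: Elovl7 (0.63, adjusted p 0.00622) and Elovl5 (0.50, adjusted p 0.0446). Elovl5 was lost under DESeq2, with saline wells of all times (log2 fold change 0.08) and in the joint fit, and in 7 of 10 fits that left out 1 well, with adjusted p up to 0.811 over settings. Elovl7 held in all settings and was lost in 1 of 10 such fits.

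Whether the effect of IFN-γ differed between the fractions was tested as an interaction, where a value above 0 means a higher effect in NeuN+ wells. At 24 h edgeR called 0 of 17 members (4.17% of all 7628 genes; 4 had an unadjusted p below 0.05; DESeq2 called 0), and 4 passed the wider limit (11%). Msmo1 had −1.27 (SE 0.382, edgeR adjusted p 0.0207; 0.0156 to 0.0292 over settings) and Sqle −1.83 (SE 0.618, edgeR adjusted p 0.0444; 0.0489 to 0.0731). Ugt8a had 0.88 (SE 0.174, edgeR adjusted p 0.00024; 4.99e-05 to 0.00191) and Fa2h 0.85 (SE 0.27, edgeR adjusted p 0.03; 0.0155 to 0.269). In each case all 6 NeuN− IFN-γ wells lay on 1 side of all NeuN− saline wells while the NeuN+ wells overlapped. The interaction was fitted on these same wells, so this separation adds no support, and its share over all genes is not given here. Of the sterol enzymes 8 of 9 tested were below 0 (median −0.73 against 0.00 over all genes), and the 4 myelin sphingolipid enzymes were all above 0 (median 0.78). Oligodendrocyte markers had an interaction for 12 of 14 at the wider limit (median 1.34). In NeuN+ wells of 24 h the astrocyte marker sum lay wholly above the saline wells after IFN-γ (mean 282 and 468 CPM). So did the scarce T cell markers (mean 29.4 and 46.2 CPM), and the GABA neuron marker sum lay wholly below (mean 255 and 135 CPM). The astrocyte sum was also wholly above in NeuN− wells (mean 1370 and 3120 CPM), and what part these markers had was not tested.

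At the other times no interaction of a member passed either limit. At 6 h edgeR called 0 of 13 (2.27%; 0 at the wider limit, 7.89%; 2 unadjusted p below 0.05), at 48 h 0 of 13 (0.128%; 0, 0.739%; 2) and at 72 h 0 of 16 (0.347%; 0, 1.85%; 4), and DESeq2 called 0 at each. The nearest were Cyp51 at 6 h (−1.30, edgeR adjusted p 0.0698), Ugt8a at 48 h (0.70, edgeR adjusted p 0.0716) and Fa2h at 72 h (0.97, edgeR adjusted p 0.0781). Among the other pathway genes edgeR called Elovl7 (1.28, adjusted p 0.000532) and Cers6 (−2.07, adjusted p 6.68e-05) at 6 h out of 29, and Abca2 (1.59, adjusted p 0.00453) at 24 h out of 33. At 24 h the wider limit of edgeR added Elovl7 (0.99, adjusted p 0.00275), Abca1 (0.71, adjusted p 0.0373), Me1 (−1.03, adjusted p 0.0192), Cers6 (−1.25, adjusted p 0.0229) and Ggps1 (−1.23, adjusted p 0.0113), so that 3 were above 0 and 3 below. Abca2 was not called and Abca1 did not pass without the filter, and Cers6 did not pass under DESeq2. At 48 h 0 of 30 and at 72 h 0 of 33 passed either edgeR limit (3 unadjusted p below 0.05 each; DESeq2 called 0).

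The fractions were compared in saline wells alone, for the members that could be tested. Over saline wells of all times edgeR called 4 of 9 members tested, all lower in NeuN+ wells (39.5% of all 4585 genes), and 8 passed the wider limit (77.4%), 6 lower and 2 higher. Ugt8a (−3.99, SE 0.0829, edgeR adjusted p 6.87e-42), Fa2h (−4.25, SE 0.109, edgeR adjusted p 1.2e-37), Gal3st1 (−2.69, SE 0.196, edgeR adjusted p 4.2e-18) and Scd2 (−2.34, SE 0.119, edgeR adjusted p 1.37e-24) were the 4. At 24 h, for example, Gal3st1 was at 11, 49.7 and 84.8 CPM in NeuN− and 6.14, 9.21 and 13.8 CPM in NeuN+ saline wells. The wider limit added Msmo1 (−0.77, adjusted p 0.00034) and Srebf2 (−0.55, adjusted p 0.000338) as lower, and Hmgcs1 (0.37, adjusted p 0.0479) and Elovl6 (0.30, adjusted p 0.00953) as higher, all by edgeR. Srebf2 did not pass without the filter or under DESeq2, nor Msmo1 without the filter. Over the 3 other settings Hmgcs1 ran from 0.52 to 0.81 and Elovl6 from 0.44 to 0.74, Msmo1 from −0.62 to −0.33 and Srebf2 from −0.41 to −0.11. Of the members below the filter, the fit without it and DESeq2 both called Cers2 (−2.35 to −2.11) and Elovl1 (−1.95 to −1.61) lower and Acat2 (1.10 to 1.26, adjusted p 9.82e-05 to 0.00499) higher. DESeq2 alone called Insig1 (−1.11) and Fasn (−1.17) lower, and the wider limit took Sc5d as higher in both, Lss as higher in 1 and Mvk as lower in 1. Scaling matters here, since RLE factors in place of TMM shifted the median log2 fold change by 0.148, and oligodendrocyte markers were lower for 13 of 13 tested (median −4.65). Of 18 other pathway genes tested 6 were called lower and 1 higher, and 10 and 3 at the wider limit. Called lower were Abca1 (−3.47), Elovl7 (−3.16), Abca2 (−2.13), Elovl5 (−1.48), Npc1 (−1.22) and Acaca (−1.04), and higher Cers6 (2.77). The call for Acaca was lost under all 3 other settings (−0.89 to −0.59) and that for Npc1 without the filter and under DESeq2. Below the filter, the fit without it and DESeq2 both called Srebf1 (−2.66 to −2.38), Scd1 (−2.35 to −2.04), Scd3 (−3.39 to −3.08), Abcg1 (−1.26 to −1.04) and Npc2 (−1.26 to −1.03) lower, and Cyp46a1 (2.13 to 2.30) and Galc (1.16 to 1.36) higher. The wider limit added Mylip (−0.61), Psap (−0.43), Mbtps1 (−0.35) and Sptlc2 (−0.33) as lower, and among those higher Me1 (0.96). Psap, Mbtps1 and Sptlc2 passed in none of the 3 other settings, and Mylip not without the filter.

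The single nuclei at 48 h allow a look within cell classes, with only 1 saline mouse. The spread behind every edgeR p of the nuclei therefore comes from the 2 IFN-γ mice alone, and the variation between saline mice is unknown, so these p-values are weak guides. The 4699 nuclei had a median of 14645.5 UMIs in the saline mouse (1016 nuclei) and 9404.5 and 11767 UMIs in the IFN-γ mice (2574 and 1109 nuclei). Classes were named from marker genes of the clusters, and 32%, 35.4% and 32.5% of nuclei in the 3 mice stayed unnamed. A call here also required both IFN-γ mice to differ from the saline mouse by a log2 ratio beyond 1, and intervals are exact 95% Poisson intervals for counting error alone. In each of 6 classes edgeR called 0 members, and DESeq2 was not run on these sums.

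**Figure D3:**
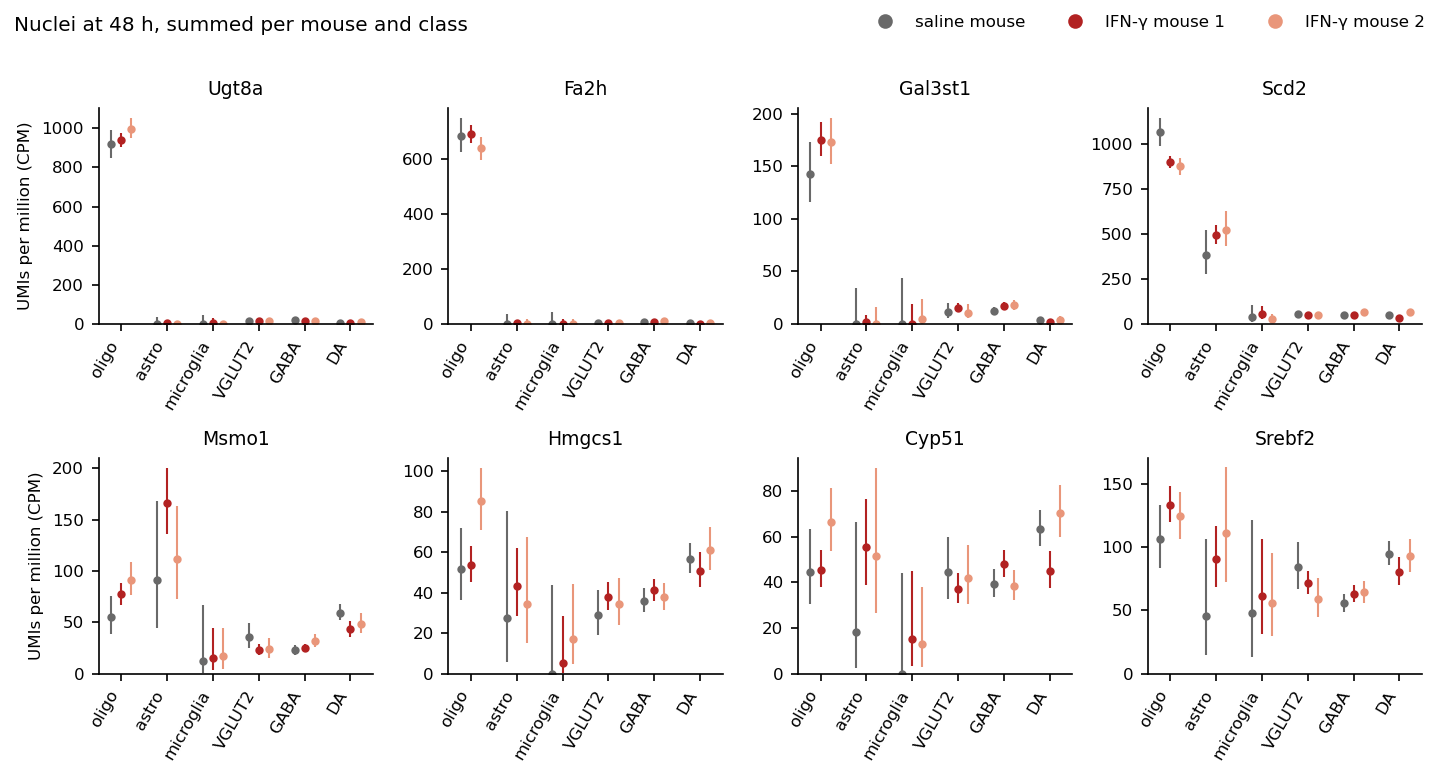
Levels of members in each cell class of the single nuclei at 48 h, in CPM, for the saline mouse and the 2 IFN-γ mice. Bars span exact 95% Poisson intervals.

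In oligodendrocyte-like nuclei (191, 744 and 306 in the saline and the 2 IFN-γ mice) no myelin sphingolipid enzyme passed a limit. Of 27 members tested 0 were called (1.05% of all 12806 genes) and 0 passed the wider limit (2.29%), with 3 unadjusted edgeR p below 0.05 and a median of 0.25 against 0.03. Taken as log2 ratios to the saline mouse, with 0.5 UMIs added to each sum, that median was 0.01 for 1 IFN-γ mouse and 0.28 for the other. Ugt8a was at 920.1 CPM [850.1 to 994] in the saline mouse and 941 [905 to 978] and 999 [949 to 1052] CPM in the IFN-γ mice, so the intervals overlapped. Fa2h was at 684 [624 to 748], 690.2 [659 to 722] and 638 [597 to 680.5] CPM, Gal3st1 at 143 [116 to 174], 176 [160.1 to 192] and 173 [152 to 196] CPM, and Cers2 at 124, 124 and 113 CPM. Scd2 was at 1067 [991 to 1147] CPM in the saline mouse and lower, at 901 [866 to 938] and 877 [829 to 927] CPM, in both IFN-γ mice (−0.20, edgeR adjusted p 0.66).

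Neither Elovl6 nor Msmo1 passed a limit, and for each the saline interval overlapped that of 1 IFN-γ mouse. Elovl6 was at 80.6 [60.9 to 105], 133 [119.5 to 147] and 109 [92.4 to 127] CPM (0.67, SE 0.225, edgeR adjusted p 0.0962) and Msmo1 at 54.7 [38.7 to 75.1], 77.4 [67.3 to 88.6] and 91.4 [76.5 to 108] CPM (0.68, SE 0.254, edgeR adjusted p 0.187). Pmvk, a kinase of the mevalonate path, was at 5.76 [1.57 to 14.7], 16.7 [12.2 to 22.3] and 15.2 [9.55 to 23.1] CPM (1.54, edgeR adjusted p 0.313). Some sterol genes were high in only 1 of the IFN-γ mice: Hmgcs1 at 51.8, 53.7 and 85.2 CPM, Cyp51 at 44.6, 45.5 and 66.5 CPM, Fdft1 at 63.4, 65.5 and 90.0 CPM and Insig1 at 38.9, 39.6 and 65.1 CPM. Sqle was at 28.8, 26.3 and 36 CPM and Idi1 at 15.8, 23.3 and 21.5 CPM. The 18 sterol enzymes summed to 426, 445 and 571 CPM, and Fdps held 1, 0 and 1 UMIs. The class joined 3 clusters with uneven shares: cluster 0 held 2, 392 and 159 nuclei of the 3 mice, cluster 1 held 80, 294 and 134, and cluster 8 held 109, 58 and 13. Its own markers summed to 26634, 22372 and 22394 CPM, and 3 of 14, Mal and Opalin among them, were lower at the wider limit. Of 41 other pathway genes tested edgeR took 1 at the wider limit, Degs1, at 97.9, 62.9 and 43.6 CPM (−0.76, adjusted p 0.0471), and it was lost without the filter and with the UMIs of the nuclei thinned to the same depth (up to 0.147).

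Astrocyte-like nuclei were few (21, 136 and 37), and no member passed a limit in them. Of 22 members tested 0 were called (0.147% of all 9518 genes) and 0 passed the wider limit (0.273%), with 2 unadjusted edgeR p below 0.05. Of the 22, 19 had a fitted log2 fold change above 0, among them 13 of 15 sterol enzymes, with a median of 0.77 against 0.13 over all genes. In the saline mouse all 18 sterol enzymes together held only 39 UMIs. As log2 ratios of each IFN-γ mouse to the saline mouse, with 0.5 UMIs added to each sum, the median was 0.60 and 0.55. Msmo1 was at 91.6 [43.9 to 168] CPM in the saline mouse and 166 [136 to 200.4] and 112 [73 to 164] CPM in the IFN-γ mice, from 10, 108 and 26 UMIs. Cyp51 was at 18.3, 55.3 and 51.6 CPM, Srebf2 at 45.8, 90.7 and 112 CPM, and Nsdhl at 18.3, 49.2 and 64.5 CPM, of which the saline values rest on 2, 5 and 2 UMIs. Fasn and Pmvk held 0 UMIs in the saline mouse, where 3 counts would be 27.5 CPM, and were at 24.6 and 30.1 CPM and at 21.5 and 30.1 CPM in the IFN-γ mice, so these counts show no clear difference. Ebp went the other way at 45.8, 13.8 and 12.9 CPM, and Scd2 was at 385 [277 to 520.1], 495 [442 to 552] and 524 [435 to 626] CPM. The 18 sterol enzymes summed to 357, 547 and 567 CPM, and Ugt8a, Gal3st1 and Fa2h held 0, 1 and 0 UMIs each. Astrocyte markers summed to 12880.8, 12799.9 and 12127 CPM. Of 36 other pathway genes tested edgeR took 0 at either limit (4 unadjusted p below 0.05).

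Microglia-like nuclei (31, 49 and 54) held few UMIs of the members. Of 6 tested 0 were called (1.49% of all 7795 genes) and 0 passed the wider limit (3.14%), with 0 unadjusted edgeR p below 0.05 and a median of 0.12 against 0.10. As ratios of each IFN-γ mouse to the saline mouse it was −0.04 and 0.01, so its sign is not settled. Srebf2 held 4, 12 and 13 UMIs, Scd2 3, 11 and 6, and Cers2 1, 3 and 14. Their markers summed to 14169, 9373 and 9899 CPM. Of 27 other pathway genes tested 1 passed the wider limit, Cers6, higher (1.73, edgeR adjusted p 0.0319; 0.0234 to 0.321 over settings, lost with thinned UMIs), at 95.3, 281 and 362 CPM.

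The 3 neuron classes showed little. Among VGLUT2 neuron-like nuclei (67, 241 and 70) edgeR called 0 of 26 members (0.181% of all genes; 0 at the wider limit, 0.302%; 1 unadjusted p below 0.05), with a median of 0.03 against 0.01 (0.12 and −0.08 as ratios of each IFN-γ mouse). The 1 was Ebp, an isomerase of the ring, at 9.93, 3.31 and 3.8 CPM (−1.50, edgeR adjusted p 0.922). Among GABA neuron-like nuclei (206, 340 and 173) edgeR called 0 of 27 (0.128%; 0 at the wider limit, 0.28%; 0 unadjusted p below 0.05), with a median of 0.16 against 0.01 (0.18 and 0.21 as ratios). Among dopamine neuron-like nuclei (175, 153 and 109) edgeR called 0 of 26 (0.0881%; 0 at the wider limit, 0.101%; 0 unadjusted p below 0.05), with a median of −0.04 against 0.01 (−0.21 and 0.13 as ratios). Elovl6 was at 137, 129 and 96 CPM in VGLUT2, 137, 134 and 117 CPM in GABA and 85, 74.5 and 85.3 CPM in dopamine neuron-like nuclei. Ugt8a stayed low there, at 15.9, 12 and 11.4 CPM in VGLUT2, 19.5, 16.4 and 15.6 CPM in GABA and 6, 5.85 and 10.8 CPM in dopamine neuron-like nuclei. Of 41, 43 and 43 other pathway genes tested edgeR took 0 at either limit (0, 1 and 0 unadjusted p below 0.05).

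The genes with the clearest values lie as follows on GRCm38: Ugt8a on chromosome 3 from 125865271 to 125938619, Fa2h on chromosome 8 from 111345135 to 111393824, Msmo1 on chromosome 8 from 64718139 to 64733792, and Scd2 on chromosome 19 from 44293674 to 44306864. Sqle lies on chromosome 15 from 59315077 to 59331192, Idi1 on chromosome 13 from 8885501 to 8892451 and Hmgcs1 on chromosome 13 from 119690379 to 119708260.

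Promoters, taken from 250 bases before to 50 after the start of the transcript, were matched for 23 of the 28 members. Fdps, Fdft1, Sqle, Scd2 and Fa2h were not matched. The sterol regulatory element TCACNCCAC, which the product of Srebf2 binds, was found on either strand in 1 of 23 members (4.35%) and in 388 of 27025 genes (1.44%). CCAAT, the site of NF-Y, which works beside it, was found in 20 of 23 (87%) and in 11096 of 27025 genes (41.1%), among them 14 of 15 sterol enzymes and 16 of 36 other pathway genes (44.4%). The site TTCNNNGAA for STAT proteins, through which IFN-γ acts, was in 2 of 23 (8.7%) against 9.55%, and GAAANNGAA for IRF proteins in 1 of 23 (4.35%) against 9.76%. Whether any site is used in these cells was not tested.

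The promoters of Hmgcs1 (chr13:119690101-119690400, + strand), Msmo1 (chr8:64733529-64733828, − strand), Idi1 (chr13:8885356-8885655, + strand) and Ugt8a (chr3:125938603-125938902, − strand) follow in the direction of reading, with sterol regulatory elements and CCAAT in capitals. Hmgcs1 holds 1 sterol regulatory element and 4 CCAAT, Msmo1 3 CCAAT, Idi1 2 CCAAT and Ugt8a 0 of the sites above.

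Hmgcs1: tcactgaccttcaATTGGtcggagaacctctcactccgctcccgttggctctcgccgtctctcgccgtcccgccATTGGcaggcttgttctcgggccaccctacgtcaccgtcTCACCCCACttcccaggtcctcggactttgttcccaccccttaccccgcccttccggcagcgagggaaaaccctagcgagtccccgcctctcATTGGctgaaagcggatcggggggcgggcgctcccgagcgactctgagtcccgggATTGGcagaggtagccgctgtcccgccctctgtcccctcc

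Msmo1: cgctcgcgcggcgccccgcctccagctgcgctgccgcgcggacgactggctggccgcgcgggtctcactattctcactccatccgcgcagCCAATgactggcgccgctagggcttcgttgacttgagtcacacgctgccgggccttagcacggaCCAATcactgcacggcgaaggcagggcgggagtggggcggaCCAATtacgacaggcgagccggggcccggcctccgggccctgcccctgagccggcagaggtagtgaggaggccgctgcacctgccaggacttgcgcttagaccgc

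Idi1: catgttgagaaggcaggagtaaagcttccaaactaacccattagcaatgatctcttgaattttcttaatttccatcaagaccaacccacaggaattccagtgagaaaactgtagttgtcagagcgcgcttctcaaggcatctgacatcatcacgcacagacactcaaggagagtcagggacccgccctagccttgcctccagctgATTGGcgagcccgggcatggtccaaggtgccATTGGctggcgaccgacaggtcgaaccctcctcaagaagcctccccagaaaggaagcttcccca

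Ugt8a: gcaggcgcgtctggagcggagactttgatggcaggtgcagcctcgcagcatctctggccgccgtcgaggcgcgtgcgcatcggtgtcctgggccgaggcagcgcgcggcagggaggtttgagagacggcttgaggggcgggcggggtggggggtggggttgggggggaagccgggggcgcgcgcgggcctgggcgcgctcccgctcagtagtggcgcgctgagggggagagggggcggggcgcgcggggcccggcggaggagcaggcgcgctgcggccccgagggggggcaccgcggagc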

How the data were processed

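The count tables were used as deposited by the authors, who aligned reads with STAR to GRCm38 (Gencode vM10) and collapsed UMIs. For the nuclei they removed doublets and left out rare cell types and ambiguous neuronal clusters. The nuclei came from 10x 3′ v3 libraries with introns counted. The members and the other gene lists were chosen with earlier results of these data known. All 28 members are named. Of 44 other pathway genes all are counted, and those passing a limit in the fit of a comparison, or being Srebf1, Insig2, Abca1, Ch25h or Cyp46a1, are named, save for some genes not reported here.

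Wells were fitted in R 4.3.3 with edgeR 4.0.16 (limma 3.58.1), using filterByExpr, TMM factors and quasi-likelihood F tests, with Benjamini-Hochberg adjustment over all genes tested. Alternatives were RLE factors, no filter, DESeq2 1.42.0, saline wells of all times, 1 fit of all wells and leaving out each well. Well pairs were compared (186 pairs, 0 identical, 1 counted as 1), and counting that pair apart was added after the data were seen. The 5 transgene rows, with 0% of UMIs, were left out.

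Nuclei were clustered in Python 3.11.15 (leidenalg 0.10.2, igraph 0.11.9, scikit-learn 1.9.0, pandas 2.3.3, numpy 2.4.6, matplotlib 3.10.9, scipy 1.17.1) on 2000 variable genes, 30 components and 15 neighbours at resolution 1 (also 0.5 and 2). The 72 member and other pathway genes took no part in clustering. Clusters were named when 1 marker list led by 0.75, a value set after the data were seen. UMIs were summed per mouse and class, genes with at least 10 UMIs over the 3 sums were kept, and log2 ratios between mice used a prior count of 0.5. No barcode was shared between mice (0).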

Additional observations from a re-analysis of the deposited data

Results flagged for a closer look

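For each member that passed a limit in a fraction and time, both groups of wells were searched for a distant well, and 1 of 24 groups had one, where about 1 in 20 would by chance. The lowest NeuN+ saline well of 72 h held Fa2h at 10.2 CPM, with the nearest at 14.3 CPM, and the well itself was of usual depth (1081483 UMIs). The gap took 0.909 of the range of the 4 wells.

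The other values are effects that differed between fractions or times by edgeR. At 24 h the effect of IFN-γ in NeuN+ wells minus that in NeuN− wells was 0.88 for Ugt8a and 0.85 for Fa2h, and it was −1.27 for Msmo1 and −1.83 for Sqle. Within NeuN− wells the effect rose from 24 to 48 h by 0.59 for Ugt8a and 1.08 for Fa2h. From 24 to 72 h it rose by 1.19 for Ugt8a and 1.15 for Fa2h and moved by −1.65 for Msmo1. The cause of these differences was not tested, and markers of cell types moved in the same wells.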

How the results depend on the processing

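The number of members called was the same in 171 of 202 other settings and moved in 31. The causes were not tested. No paired analysis was run, because which wells shared a mouse was not stated.

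NeuN− wells at 6 h gave 2 calls, 0 without the filter, 1 with saline wells of all times, 3 in the joint fit, and 1 to 2 with 1 well left out (1 without saline well 1, IFN-γ well 4 or 6). Counting wells 2 and 5 apart, chosen after the data were seen, left 2. At 24 h the 1 call, Fa2h, became 2 at the wider limit. The joint fit lost it and called 2 others, Msmo1 and Idi1, and without the filter or under DESeq2 the 1 call was Msmo1 instead. The count was 0 with saline wells of all times, and 0 to 1 with 1 well left out (0 without saline well 4, IFN-γ well 1 or 6). At 48 and 72 h 0 became 1 at the wider limit.

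NeuN+ wells at 6 h gave 1 call, 2 at the wider limit, 0 without the filter, 0 with saline wells of all times, and 0 to 1 with 1 well left out (0 without saline well 1 or 4, IFN-γ well 3, 4 or 5). At 72 h the 1 call became 3 at the wider limit, 0 with saline wells of all times and 0 to 1 with 1 well left out (0 without saline well 2). The 24 h interaction went from 0 to 4 at the wider limit. The change from 24 to 48 h went from 1 to 2 at the wider limit and to 0 without the filter, and that from 24 to 72 h from 3 to 1 without the filter. The fractions gave 4 calls, 8 at the wider limit, 7 without the filter and 9 under DESeq2.

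Single genes kept their result in 328 of 438 settings, were weaker in 106 and reversed in 4. Msmo1 in NeuN+ wells at 72 h turned from 0.62 to −0.0461 with saline wells of all times. Between fractions Mbtps1 turned from −0.35 to 0.10, Sptlc2 from −0.33 to 0.12 and Psap from −0.43 to 0.0102 without the filter.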
